A study of Rattus norvegicus with 241 samples.

Results

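The collagen genes are those whose symbol reads COL, a number, A and a number, and 43 such genes were found among the 21707 genes of all tables. The bulk RNA-seq tables held 28 of them among 16820 genes, the single-cell tables held 42 among 18566, and 27 were in both. By family, with the genes found in bulk and in single-cell tables out of those listed, the fibrillar collagens had 10 and 11 of 11, the basement membrane collagen IV chains 3 and 6 of 6, and collagen VI and its relatives 2 and 5 of 6. The fibril-associated collagens had 5 and 9 of 10, the multiplexins 2 and 2 of 2, the transmembrane collagens 3 and 3 of 4, and the network, anchoring and other collagens 3 and 6 of 6. COL4A2, COL6A1 and COL12A1 were among the genes measured only in single cells, so every bulk statement on type IV collagen below rests on COL4A1, COL4A3 and COL4A4.

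The samples were mammary gland cells from female ACI rats, an inbred strain, and Sprague Dawley (SD) rats, an outbred stock, given LY2157299, an inhibitor of the TGFβ type I receptor (TGFBRi, 75 mg/kg by gavage, 2 doses a day), or vehicle. Dosing lasted 10 days and began at 35 days of age in peripubertal ACI rats, at 24 days in peripubertal SD rats and at 18 to 24 weeks in adult virgin or parous ACI rats. Peripubertal ACI glands were taken at day 0, 7 or 14 after dosing, and the peripubertal SD glands at day 0. SD rats dosed from 21 days of age received N-nitroso-N-methylurea (NMU, 50 mg/kg) and were taken at day 87, and a further set of ACI rats, with dosing from 38 days of age over 21 days, received an empty or an estradiol (E2, 37 mg) implant. Glands were digested with collagenase, and basal (CD24+CD29high) and luminal (CD24+CD29low) cells were sorted from CD31-CD45- cells beside CD45+ leukocytes. EPCAM+ and CD45+ cells were sorted from NMU tumors. Single cells came from basal and luminal sorts of 6 virgin ACI and 9 virgin SD rats and from whole glands of 9 virgin SD rats, all at day 0. These were peripubertal rats, with dosing from 35 days of age in ACI and 24 days in SD rats. Groups held 2 to 4 rats in bulk and 3 to 6 rats in single cells.

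Collagens are triple-helical proteins of the extracellular matrix. The fibrillar chains COL1A1, COL3A1, COL5A1 and COL5A2 build the tensile fibers of connective tissue, whereas type IV collagen, assembled mainly from COL4A1 and COL4A2, forms the sheet-like network of the basement membrane that myoepithelial (basal) cells, endothelium and pericytes rest on. COL7A1 forms anchoring fibrils beneath epithelia, COL17A1 is a transmembrane component of hemidesmosomes in basal epithelial cells, and COL15A1 and COL18A1 are basement-membrane collagens that carry glycosaminoglycans. COL6A1 and COL6A2 form beaded microfilaments, and COL9A1 to COL9A3, COL12A1, COL14A1 and COL16A1 associate with fibrils. TGFβ is a well known inducer of fibrillar collagen in fibroblasts.

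Bulk values are normalized counts as deposited, read counts divided by a size factor within a data set, and their whole reads were recovered in all 202 bulk libraries (4194912 to 52314784 reads on genes). Bulk differences are log2(normalized count + 1) with their SE, tested with limma and called at an adjusted p of 0.05 or less. The sorted ACI single-cell libraries held 16762 cells, the sorted SD libraries 39766 and the whole-gland libraries 103524, with median UMI counts per library of 4251 to 15941, 4366 to 14448 and 2820 to 3885. Single-cell values are CPM, a gene's UMIs scaled to the UMI total of all genes, with UMIs summed over the cells of a class or sort of each rat, tested with edgeR and called at an adjusted p of 0.1 or less. Clusters were named, after the collagens were left out of clustering, by fixed markers as X-like classes. Unnamed clusters held 29.5%, 6.2% and 11.3% of the cells of the 3 experiments, and libraries of an experiment shared 0.209%, 0.546% and 6.31% of their barcodes. Levels are compared within a gene, since no transcript lengths were at hand, and intervals of the differences reflect the spread between rats. A lack of overlap between groups is a description and no test. The share of all genes without overlap is not set beside it. Counts of collagens called in alternative fits, such as those without 1 rat, carry no share of all genes called unless one is printed.

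In whole glands of the 3 vehicle rats, the stromal classes held the highest levels of most collagens. Of the 38 genes with at least 30 UMIs, 9 were highest in Schwann-like cells, 8 in adventitial fibroblast-like, 7 in fibroblast-like, 6 in pericyte-like, 5 in basal-like, 2 in endothelium-like and 1 in lymphatic endothelium-like cells. The levels are a description over 3 rats, and a class is called apart where its rats did not overlap those of any other named class. Of these first places, 4 were apart in Schwann-like, 3 in adventitial fibroblast-like, 5 in fibroblast-like, 2 in pericyte-like and 4 in basal-like cells. In endothelium-like and lymphatic endothelium-like cells 0 were.

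**Figure D1:**
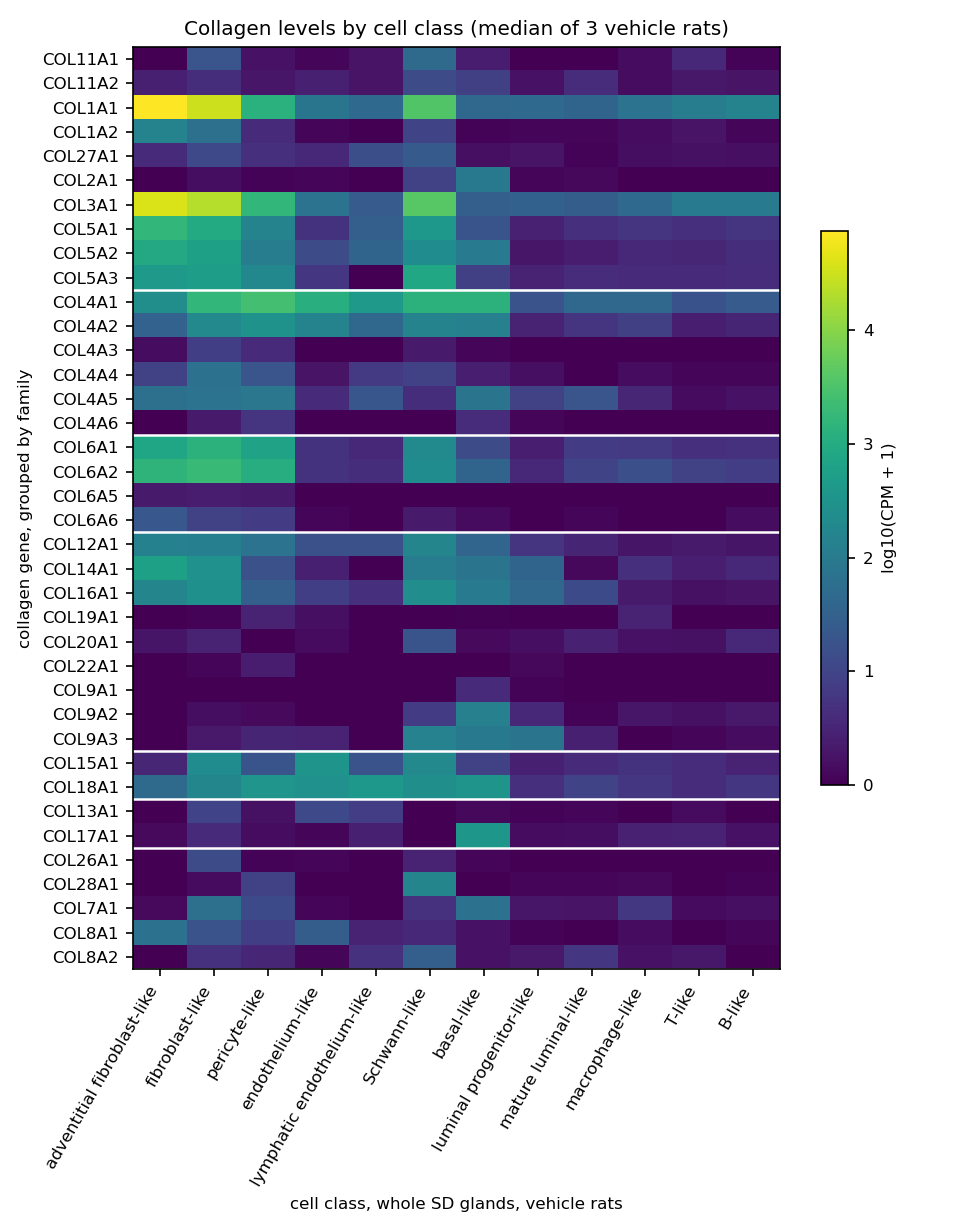
Median CPM of each collagen gene over 3 vehicle rats (color, log10(CPM + 1)) by cell class of whole SD glands, with families separated by white lines. COL1A1 and COL3A1 are brightest in the 2 fibroblast-like classes, COL4A1 and COL4A2 in pericyte-like cells and COL17A1 in basal-like cells.

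Among the fibrillar collagens, COL1A1, the main chain of type I collagen, stood at 44209 to 96829 (median 74201) CPM in adventitial fibroblast-like and at 29426 to 46383 (median 31109.8) in fibroblast-like cells, which overlapped, against 2499 to 7996 (median 3565) in Schwann-like cells. In B-like cells, which should lack it, COL1A1 read 39.2 to 633 CPM, a level taken here as background, and whether free RNA or doublets gave it was not tested. COL3A1, type III collagen, followed the same order at 25329.8 to 52378 (median 38594), 20248 to 30662 (median 21579) and 2684 to 5147 (median 4049) CPM. COL5A1, the fibril-nucleating type V chain, was apart in adventitial fibroblast-like cells at 1522 to 2122 (median 1688) CPM, ahead of 893 to 1251 (median 935) in fibroblast-like cells, and COL5A2 was apart there too at 757 to 961 (median 858). COL5A3 was highest in Schwann-like cells (595 to 1007, median 781) but overlapped both fibroblast-like classes. COL11A1 was apart in Schwann-like cells at 44.1 to 50.2 (median 47.8) CPM. COL2A1, the cartilage fibril chain, was apart in basal-like cells at 54.6 to 138 (median 90.7) CPM, against 4.9 to 17.6 (median 7.96) in Schwann-like cells. COL1A2, the partner chain of COL1A1, was at 85.3 to 235 (median 150.3) CPM in adventitial fibroblast-like cells, and few of its reads were counted in any table.

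Among the basement membrane chains, COL4A1 was apart in pericyte-like cells at 2123 to 2789.8 (median 2638) CPM, followed by fibroblast-like cells at 1468 to 1702 (median 1665) and basal-like cells at 1323 to 1654 (median 1351), which overlapped each other. COL4A2 was apart in pericyte-like cells as well, at 235 to 339 (median 303) CPM. COL4A3 and COL4A4, chains of a more restricted type IV network, were both apart in fibroblast-like cells, at 6.37 to 9.23 (median 7.1) and 57.6 to 81.9 (median 66.8) CPM. COL4A5 overlapped between pericyte-like (54.5 to 184, median 83.1), basal-like (72.3 to 93.6, median 72.4) and both fibroblast-like classes (69.2 to 94, median 70.2 in fibroblast-like cells). COL15A1 was highest in endothelium-like cells at 289.6 to 353 (median 332) CPM, overlapping fibroblast-like cells, and COL18A1 in lymphatic endothelium-like cells at 313 to 413 (median 391), overlapping pericyte-like, basal-like and endothelium-like cells.

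COL6A1 and COL6A2 were apart in fibroblast-like cells, at 1265 to 1501 (median 1360.1) and 1962 to 2590.1 (median 1983) CPM. Of the fibril-associated genes, COL14A1 was apart in adventitial fibroblast-like cells (433 to 765, median 586), COL9A2 in basal-like cells (112 to 133, median 132), whereas COL12A1 (117 to 168, median 160.2 in Schwann-like cells) overlapped the fibroblast-like classes and COL16A1 (242 to 304, median 272 in fibroblast-like cells) overlapped Schwann-like cells. COL28A1 was apart in Schwann-like cells at 113 to 192 (median 165) CPM. COL17A1 was apart in basal-like cells at 349 to 471 (median 383) CPM and reached no more than 3.82 in fibroblast-like cells, the next class. COL7A1 was at 61.2 to 79.3 (median 64.5) CPM in basal-like and 22.7 to 67.6 (median 61.6) in fibroblast-like cells, which overlapped. Members with few UMIs, such as COL19A1, COL22A1 and COL6A5, had medians of no more than 2.01 CPM in any class.

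Basal and luminal sorts were compared in vehicle rats at day 0. The fits also held the treated groups, the later days in ACI rats and the NMU groups in SD rats. The SE and adjusted p draw on the spread of all of them. Of the 26 collagens tested in ACI rats, 18 were higher in basal cells and 0 lower, where limma called 20.5% of all genes (12.4% higher), and the collagens' median log2 difference was 4.17 against 0.21 for all genes. In SD rats 22 of 26 were higher and 0 lower, where 40.9% of all genes were called (21.8% higher), with medians of 4.9 and 0.017. Both sorts came from the same rats, and with the rat as a block 24 and 23 collagens were higher, where 34.6% and 42.9% of all genes were called (20.4% and 22.8% higher). By family, ACI and SD calls were 6 and 8 of 9 fibrillar, 2 and 2 of 3 type IV, 1 and 1 of 2 type VI, 3 and 4 of 4 fibril-associated, 2 and 2 of 2 multiplexin, 2 and 2 of 3 transmembrane and 2 and 3 of 3 network and other genes. Sums of the basal markers were 192409 to 273178 normalized counts in ACI basal and 3639 to 5184 in ACI luminal sorts, and those of the luminal markers 49464 to 67314 and 450835 to 482762.

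**Figure D2:**
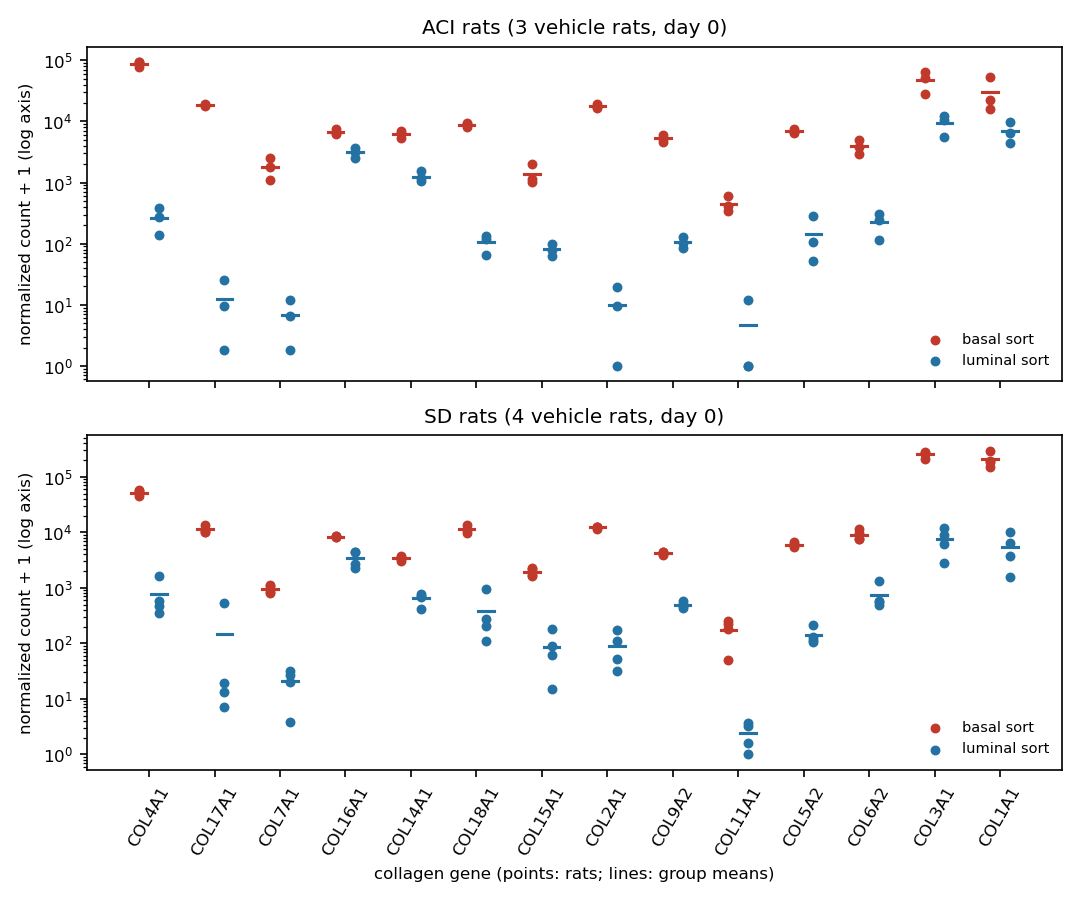
Normalized counts (log axis, 1 added) of 14 collagens in basal (red) and luminal (blue) sorts of vehicle rats, ACI above and SD below, with 1 point a rat and a line at the mean. COL4A1, COL17A1, COL7A1 and COL2A1 separate the sorts in both strains, whereas COL16A1 differs less.

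COL17A1, the hemidesmosome collagen, was at 17588, 18728 and 19302 normalized counts in ACI basal and 0.829, 8.62 and 24.8 in ACI luminal cells (log2 difference 11.24 ± 1.03, adjusted p = 2.07e-09). COL4A1 was at 78859.6, 92702 and 93098 in basal and 139, 274 and 381 in luminal cells (log2 difference 8.49 ± 0.96, adjusted p = 7.73e-08). In SD rats COL4A1 was at 45825, 50090.1, 54576 and 57216 in basal and 357, 467, 582 and 1635 in luminal cells (log2 difference 6.36 ± 0.56, adjusted p = 2.47e-10). None of these groups overlapped. COL17A1 was at 10200.4, 10222, 11624 and 13626 in SD basal and 6.06, 12.5, 18 and 542 in SD luminal cells (log2 difference 8.49 ± 1.02, adjusted p = 1.23e-07), and 1 luminal library lay far above the other 3. COL7A1, the anchoring-fibril collagen, was higher in basal cells by 8.35 in ACI and 5.88 in SD rats (adjusted p = 6.24e-09 and 3.29e-08), COL18A1 by 6.46 and 5.37, and COL15A1 by 4.06 and 4.94. COL26A1 had no reads in any of the 3 ACI luminal libraries and was at least 33.6-fold higher in basal cells, against a floor of 3 reads per library.

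Chains known from cartilage were higher in basal than in luminal sorts as well. COL2A1 was at 16703, 17528 and 19147 in ACI basal and 0, 8.62 and 18.2 in ACI luminal cells (log2 difference 11.61 ± 1.21, adjusted p = 1.93e-08), and in SD rats at 11546, 12531, 12579.7 and 12725 in basal and 30.5, 50.5, 109.6 and 169.7 in luminal cells (log2 difference 7.37 ± 0.85, adjusted p = 6.36e-08). COL9A1 (8.13 on the log2 scale), COL9A2 (5.68) and COL11A1 (7.58) were also higher in ACI basal cells. In whole SD glands, however, COL11A1 was apart in Schwann-like cells, followed by fibroblast-like and T-like cells, with basal-like cells below these. No basal library overlapped a luminal one for COL2A1 in either strain.

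In ACI rats the calls of the interstitial fibrillar genes turned on whether the rat was a block in the fit. COL1A1 was at 16217, 22408 and 52782 in ACI basal and 4486, 6437 and 9874 in ACI luminal cells (log2 difference 2.02 ± 1.5, adjusted p = 0.425), and COL3A1 had a log2 difference of 2.37 (adjusted p = 0.167). With the rat as a block limma called both (adjusted p = 0.0358 and 0.000992), and COL4A3, COL6A4, COL13A1 and COL27A1 passed as well. In SD rats COL1A1 was at 150633, 186687, 195891 and 296769 in basal and 1583, 3719, 6322 and 10086 in luminal cells (log2 difference 5.51 ± 0.75, adjusted p = 9.73e-07), and COL3A1 differed by 5.25 (adjusted p = 9.18e-07). Sums of the fibroblast markers were 23564 to 38399.5 in ACI basal, 9355 to 13241 in ACI luminal, 48891 to 100809 in SD basal and 10239 to 77116 in SD luminal sorts, and their part in the COL1A1 and COL3A1 levels was not tested. The smallest called difference was COL16A1 in SD rats (log2 difference 1.34 ± 0.27, adjusted p = 0.000146), which was not called in ACI rats (log2 difference 1.1 ± 1.01, adjusted p = 0.54, and 0.0941 with the block). In SD rats COL23A1, COL27A1 and COL6A4 were not called in either fit, and COL4A3 passed with the block alone (adjusted p = 0.0202).

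Genes that make or bind collagen were compared beside the all-gene shares of 12.4% higher in ACI and 21.8% higher in SD basal cells. Of 31 genes of collagen synthesis and assembly, 17 were higher and 0 lower in ACI basal cells and 19 higher and 1 lower in SD basal cells, including the lysyl hydroxylase PLOD2 (7.29 ± 1.23, adjusted p = 4.22e-05 in ACI) and the lysyl oxidase LOX (7.37 ± 0.88, adjusted p = 5.57e-08 in SD). PLOD3 was the gene lower in SD basal cells (-0.89 ± 0.23, adjusted p = 0.00248). Of 10 collagen receptors, 3 were higher in ACI basal cells and 7 in SD basal cells, where DDR1 was lower (-1.05 ± 0.26, adjusted p = 0.00161). With the rat as a block, where 20.4% of all genes were higher in ACI, 6 receptors were higher in ACI basal cells, CD44, ITGB1 and ADGRG1 being added, and 18 synthesis genes were higher and 2 lower. The integrin chain ITGA1 was higher in both (8.02 ± 0.79, adjusted p = 6.56e-09 in ACI, 5.11 ± 0.77, adjusted p = 3.41e-06 in SD).

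Promoter sequences, 250 bases before to 50 after the gene start in RefSeq (GRCr8), were matched for 35 of the 43 genes. Of these, 4 are shown, the head-to-head pair COL4A1 and COL4A2, both basement membrane chains, COL17A1, which stood apart in basal-like cells, and COL16A1, the smallest called difference between SD sorts. Capitals mark the GC box (GGGCGG), the CCAAT box (CCAAT) and the TATA box (TATAAA) on either strand, and each runs 5′ to 3′ on its gene's strand.
COL4A1, chr16:84885347-84885646, plus strand: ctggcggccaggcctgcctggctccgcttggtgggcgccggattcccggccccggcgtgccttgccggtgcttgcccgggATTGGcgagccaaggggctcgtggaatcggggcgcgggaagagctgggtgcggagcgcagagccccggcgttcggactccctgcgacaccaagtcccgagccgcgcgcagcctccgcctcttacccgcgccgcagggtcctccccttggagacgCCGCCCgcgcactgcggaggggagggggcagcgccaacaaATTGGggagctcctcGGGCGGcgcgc
COL4A2, chr16:84885471-84885770, minus strand: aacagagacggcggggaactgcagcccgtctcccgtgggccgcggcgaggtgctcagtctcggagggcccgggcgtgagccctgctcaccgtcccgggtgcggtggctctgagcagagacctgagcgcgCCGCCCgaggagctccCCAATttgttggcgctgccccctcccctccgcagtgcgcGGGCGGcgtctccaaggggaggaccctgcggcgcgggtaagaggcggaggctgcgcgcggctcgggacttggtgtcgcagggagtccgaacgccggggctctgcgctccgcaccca
COL16A1, chr5:147672846-147673145, plus strand: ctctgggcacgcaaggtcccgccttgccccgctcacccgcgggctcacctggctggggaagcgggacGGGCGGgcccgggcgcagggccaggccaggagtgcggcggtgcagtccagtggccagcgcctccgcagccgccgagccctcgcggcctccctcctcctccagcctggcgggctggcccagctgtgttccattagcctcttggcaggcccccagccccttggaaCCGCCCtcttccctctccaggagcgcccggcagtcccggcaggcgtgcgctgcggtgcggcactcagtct
COL17A1, chr1:256518808-256519107, minus strand: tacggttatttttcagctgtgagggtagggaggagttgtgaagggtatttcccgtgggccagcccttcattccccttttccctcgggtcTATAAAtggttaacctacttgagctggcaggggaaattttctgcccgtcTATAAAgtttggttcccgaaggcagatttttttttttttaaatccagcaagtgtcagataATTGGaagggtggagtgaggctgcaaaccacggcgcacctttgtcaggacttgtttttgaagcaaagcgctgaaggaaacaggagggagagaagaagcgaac

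The starts of COL4A1 and COL4A2 lay 77 bases apart on opposite strands, so that 176 bases are in both windows. Those of COL4A3 and COL4A4 lay 413 bases apart and shared 88 bases, and those of COL4A5 and COL4A6 lay 1415 bases apart and shared 0. The COL4A1 window held 2 GC and 2 CCAAT boxes, COL4A2 2 and 1, COL16A1 2 GC boxes, and COL17A1 1 CCAAT and 2 TATA boxes. Over 27457 promoters of this length, 34.9% held a GC box against 19 of 35 collagens (54.3%), 37.7% a CCAAT box against 11 (31.4%), and 14.3% a TATA box against 4 (11.4%). CAGACA, the core of the SMAD-binding CAGA box, was in 20.8% of promoters and 5 collagens (14.3%), and the AP-1 letters TGANTCA in 7.33% and in 1 collagen, COL6A1. These are matches of letters and not binding sites.

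The effect of TGFBRi in basal cells was first taken from the sorted single cells. In ACI basal-like cells, 12 of 31 collagens fell and 1 rose, where edgeR called 25.2% of all genes (13.1% lower), and the median log2 difference was -0.42 against -0.067 for all genes. In SD basal-like cells 10 of 33 fell and 2 rose, where 29.5% of all genes were called (14.2% lower), with medians of -0.58 and 0.07. COL17A1, COL2A1, COL12A1, COL4A5, COL5A1 and COL5A2 fell in both strains. SE values of single-cell differences come from a DESeq2 fit of the same sums.

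COL17A1 was at 654, 678 and 744 CPM in vehicle and 424, 457 and 471 CPM in TGFBRi rats (log2 difference -0.51 ± 0.11, adjusted p = 0.00407), with no overlap. COL16A1, a fibril-associated collagen, was at 166, 169 and 174 CPM in vehicle and 92.2, 97.4 and 107.1 CPM in TGFBRi rats (log2 difference -0.66 ± 0.12, adjusted p = 0.000952). COL2A1 was at 134, 162 and 202 CPM in vehicle and 72.7, 76.5 and 79.7 CPM in TGFBRi rats (log2 difference -1.02 ± 0.19, adjusted p = 0.000322). Each treated rat lay below each vehicle rat for these genes. Of the type IV pair, COL4A2 was at 728, 743 and 845 CPM in vehicle and 449, 474 and 525 CPM in TGFBRi rats (log2 difference -0.57 ± 0.11, adjusted p = 0.00243). COL4A1 was at 3048, 3258 and 3437 CPM in vehicle and 2584, 2985 and 3263 CPM in TGFBRi rats (log2 difference -0.034 ± 0.11, adjusted p = 0.883), with overlap. COL4A5 (-0.53), COL4A6 (-0.53), COL7A1 (-0.53), COL12A1 (-0.61), COL9A1 (-0.52), COL5A2 (-0.42), COL5A1 (-0.81) and COL5A3 (-0.86 on the log2 scale) fell as well. COL15A1, at 1.4 to 4.72 CPM in vehicle rats, rose by 1.47 (adjusted p = 0.0249).

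The cells behind these values differed between groups. In ACI rats, 94.8% to 99.4% of the vehicle basal sort was basal-like against 10.3% to 17.3% of the TGFBRi basal sort, and the other treated cells were mostly in 2 clusters left unnamed, led by HMOX1, SESN2 and SLC7A11, stress-response genes, or by FABP4 and CXCL14. In both, 8 of 10 basal markers were high and the basal list scored best. They were left unnamed because their leading genes held more markers of fibroblasts (the first) or adipocytes (the second) than of basal cells. In SD rats cluster 2, led by HMOX1 with 7 of 9 basal markers high, was named basal-like. The low basal-like share in treated ACI rats therefore rests in part on the naming rule. At resolution 0.8 a separate unnamed ACI cluster of 17 cells, with 11 of 11 fibroblast markers high, was led by COL1A1 and COL3A1. No separate cluster of that kind was found at resolution 0.4. There an ACI cluster of 4289 cells, 93.4% from treated rats, was led by COL1A1 and COL3A1. The part of the 17 cells in that lead, and in the COL1A1 and COL3A1 levels of the sorts, was not tested. Over the whole basal sort the fibroblast markers, collagens left out, summed to 177 to 224 CPM in vehicle and 191 to 292 CPM in TGFBRi rats and the adipocyte markers to 23 to 59 and 15.2 to 61.8 CPM, so both overlapped, whereas the basal markers summed to 16709 to 17913 CPM in vehicle and 14773 to 16179 CPM in TGFBRi rats, lower without overlap. The part of these levels in the collagen changes of the sort was not tested. Within the ACI basal-like class, cluster 9, led by the cell-cycle genes MKI67 and TOP2A, held 10.6% to 22% of treated and 0.482% to 1.52% of vehicle cells, and its part in the falls was not tested. Summed over the whole ACI basal sort, chosen after these shares were seen, 11 of 33 collagens fell and 3 rose, where 32.9% of all genes were called (17.2% lower). COL17A1 was then at 649, 673 and 746 CPM in vehicle and 486, 496 and 500.1 CPM in TGFBRi rats (log2 difference -0.25 ± 0.10, adjusted p = 0.0772), COL16A1 fell by 0.47, COL4A2 fell by 0.37, and COL4A1 was not called (log2 difference 0.10 ± 0.11, adjusted p = 0.581). COL1A1, at 0.914, 6.95 and 30.2 CPM in vehicle and 23.1, 24.5 and 157 CPM in TGFBRi rats, rose by 2.47 (adjusted p = 0.0551) with 2 of the 3 treated rats inside the vehicle range, COL18A1 by 0.33 and COL25A1, at 1.37 to 1.71 CPM in vehicle rats, by 1.08. Without treated rat ACI12 or ACI15, 7 and 8 collagens were called in the class and 9 and 8 in the sort. Without treated rat ACI16 the sort gave 7 lower and 3 higher, and without vehicle rat ACI7 it gave 7 lower and 7 higher, so that the lean towards lower calls was lost. At a clustering resolution of 0.4 the class gave 6 calls.

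In SD basal-like cells COL14A1 was at 421, 447 and 499.5 CPM in vehicle and 53.3 (lowest), 116 (median) and 282 CPM (highest) in TGFBRi rats (log2 difference -1.23 ± 0.41, adjusted p = 0.0422). COL2A1 was at 67.9, 81.4 and 108.3 CPM in vehicle and 18.3 (lowest), 30.9 (median) and 42.1 CPM (highest) in TGFBRi rats (log2 difference -1.11 ± 0.25, adjusted p = 0.0121). COL12A1 was at 71.7, 129 and 170.4 CPM in vehicle and 18 (lowest), 32.2 (median) and 60.1 CPM (highest) in TGFBRi rats (log2 difference -1.39 ± 0.36, adjusted p = 0.0179). No treated rat reached a vehicle rat for COL14A1, COL2A1 or COL12A1. COL17A1 fell by 0.47 (adjusted p = 0.0905), and the low-count COL6A6, COL4A3 and COL4A4 fell by 2.8, 2.13 and 1.61. COL18A1 rose by 0.51 and COL15A1 by 2.13. COL4A1 (log2 difference -0.71 ± 0.32, adjusted p = 0.104) and COL4A2 (log2 difference -1.2 ± 0.52, adjusted p = 0.112) missed the threshold, although every treated rat lay below every vehicle rat for COL4A2. Without vehicle rat SD3 edgeR called 0 of the collagens (DESeq2 called 14 with all rats), and without vehicle rat SD1 3. The share of all genes called in those fits is not set beside these counts, so they do not single out the collagens. The whole SD basal sort gave 9 lower and 2 higher of 37, where 24.7% of all genes were called (12.1% lower), and 1 without SD3, 3 without SD1 and 7 without treated rat SD12. Basal marker sums of this sort were 14524 to 15982 CPM in vehicle and 16748 to 19809 CPM in TGFBRi rats, higher without overlap. Fibroblast marker sums overlapped, at 277 to 1667 CPM in vehicle and 338 to 808 CPM in TGFBRi rats. Adipocyte marker sums overlapped too, and reached 718 CPM in a TGFBRi rat. In treated rat SD13, 48.5% of the sort was basal-like and 40.7% unnamed, against 92.1% to 99.6% basal-like in the other rats. An unnamed SD cluster of 502 cells, 93.2% from treated rats, was led by COL1A1 and COL3A1. The part of these cells and levels in the collagen changes was not tested. Vehicle basal-like cells lay mostly in cluster 6 (47.7% to 90.8% of a rat's cells), which held 0% to 6.36% of a treated rat's cells, and cluster 2, led by HMOX1, came to 98.9% from 1 treated rat. With library totals in place of TMM scaling, the median of all genes moved from 0.07 to -0.34, and 20 collagens fell and 1 rose in SD basal-like cells. The ACI class kept a split of 12 and 1, and the sorts gave 15 and 2 in ACI and 20 and 1 in SD rats. The share of all genes called with library totals is not set beside these counts, so they do not single out the collagens.

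Whole SD glands gave the opposite side for basal-like cells. There 14 of 35 collagens rose and 1 fell, where edgeR called 45.1% of all genes (22.1% higher), with a median log2 difference of 0.43 against 0.049 for all genes, and 31 of the 35 had a positive difference. Over 9831 genes with at least 100 UMIs in each experiment, the basal-like effects ranked alike in sorted ACI and SD cells (Spearman's rho across genes, which are not independent replicates, 0.69) and not in whole glands against either sort (-0.082 with ACI and -0.13 with SD). COL14A1 was at 43.5, 72.6 and 89.5 CPM in vehicle and 113 (lowest), 124 (median) and 149 CPM (highest) in TGFBRi rats (log2 difference 0.92 ± 0.21, adjusted p = 0.00351). COL16A1 was at 91.5, 101.9 and 103.3 CPM in vehicle and 122 (lowest), 155 (median) and 199 CPM (highest) in TGFBRi rats (log2 difference 0.69 ± 0.20, adjusted p = 0.0129). COL9A2 was at 112, 132 and 133 CPM in vehicle and 149 (lowest), 183 (median) and 194 CPM (highest) in TGFBRi rats (log2 difference 0.49 ± 0.14, adjusted p = 0.0151). For these 3 genes each treated rat lay above each vehicle rat. COL2A1 (log2 difference 0.72 ± 0.25, adjusted p = 0.0317), COL4A2 (log2 difference 0.43 ± 0.16, adjusted p = 0.0405), COL4A5 (log2 difference 0.68 ± 0.25, adjusted p = 0.0412) and COL5A2 (log2 difference 0.41 ± 0.13, adjusted p = 0.0219) also rose. COL18A1 fell, with 254, 329.9 and 399.6 CPM in vehicle and 144 (lowest), 203 (median) and 299 CPM (highest) in TGFBRi rats (log2 difference -0.67 ± 0.23, adjusted p = 0.0229), with overlap. COL17A1 (log2 difference 0.18 ± 0.14, adjusted p = 0.309) and COL4A1 (log2 difference 0.091 ± 0.16, adjusted p = 0.659) were not called. Without vehicle rat veh1 or veh2 the count was 7 and 5, and with library totals 13 rose and 1 fell, counts given without the share of all genes called in the same fits.

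**Figure D3:**
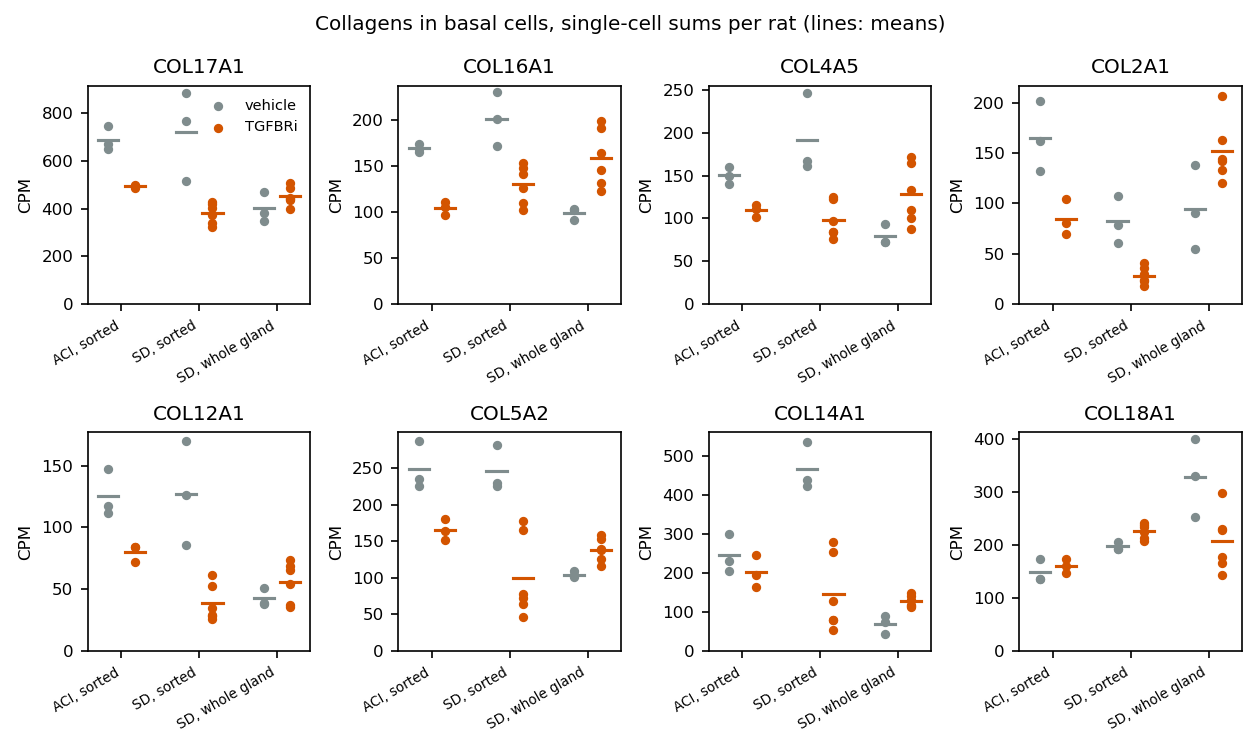
CPM of 8 collagens in basal cells of vehicle (gray) and TGFBRi (orange) rats, 1 point a rat and a line at the mean, for the sorted ACI and SD basal cells and the basal-like cells of whole SD glands. COL14A1, COL2A1 and COL12A1 sit lower in treated rats of the sorted SD cells, and COL14A1 and COL16A1 sit higher in treated rats of the whole glands.

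The difference between both SD experiments was tested itself, as whole-gland effect minus sorted effect in basal-like cells, a test added after these values were seen. It passed for 20 of 35 collagens, 18 positive and 2 negative, where 38.7% of all genes were called, with a median of 1.00 against 0.07. COL14A1 differed by 2.19 ± 0.50, adjusted p = 0.00219, COL2A1 by 1.88 ± 0.36, adjusted p = 0.000536, COL12A1 by 1.86 ± 0.48, adjusted p = 0.00438 and COL4A2 by 1.67 ± 0.63, adjusted p = 0.0475. COL18A1 (-1.13 ± 0.29, adjusted p = 0.00524) and COL15A1 (-1.91 ± 0.71, adjusted p = 0.0474) were the negative ones. The calls of COL4A2 and COL15A1 were lost when veh2, and when veh4 or SD3, was left out (adjusted p up to 0.122 and 0.164). DESeq2 called 21, and leaving out 1 rat gave 15 to 21. The experiments differed in rats, sorting, 3′ against 5′ chemistry and Cell Ranger version, which cannot be told apart. In the whole glands, cluster 5 held 98.1% to 99.2% of treated basal-like cells and 8.14% to 43.6% of vehicle ones, and cluster 9 held 56.4% to 91.9% of vehicle ones.

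In luminal cells fewer collagens could be measured. In ACI luminal progenitor-like cells 3 of 17 fell and 1 rose (25.4% of all genes called), and in SD luminal progenitor-like cells 5 of 23 fell and 1 rose (28.7%). COL12A1 fell in both. In ACI rats it was at 17.7, 23.9 and 28.1 CPM in vehicle and 6.69, 6.87 and 7.6 CPM in TGFBRi rats (log2 difference -1.35 ± 0.31, adjusted p = 0.00318), and in SD rats at 15.3, 21.3 and 40.2 CPM in vehicle and 1.21 (lowest), 2.89 (median) and 7.55 CPM (highest) in TGFBRi rats (log2 difference -2.57 ± 0.52, adjusted p = 0.0279). Treated and vehicle rats did not overlap in either strain. COL9A3 fell by 0.52 in ACI and by 1.13 in SD progenitors, COL16A1 by 0.55 in ACI, and COL4A5 by 0.79 in SD. In mature luminal-like cells 2 of 18 were called in ACI (25.3% of all genes), COL16A1 (-0.88) and COL8A2 (-0.76), and 2 of 13 in SD rats (31.8%), where COL4A5 fell by 0.85 (adjusted p = 0.0593). The genes that rose, COL3A1 in ACI progenitors and COL1A1 in SD progenitors and mature luminal cells, did so on means of 2.33, 10.4 and 5.56 UMIs a rat. Leaving out ACI15 left 2 calls in ACI progenitors. In SD progenitors, leaving out SD1 or SD3 left 0, SD2 1, and SD12 or SD13 3, counts given without the share of all genes called in the same fits. In SD mature luminal-like cells, leaving out SD1, SD3 or SD13 left 0 and SD2 or SD12 1, and in ACI mature luminal-like cells ACI7 or ACI8 left 0 and ACI12, ACI15 or ACI16 1. With library totals ACI progenitors gave 6 lower and 1 higher. Over whole luminal sorts, sums added after the classes were seen, 5 of 30 collagens rose and 2 fell in ACI rats, beside 25.3% of all genes, and 0 rose and 4 of 31 fell in SD rats, beside 31.9%. In the ACI sort COL12A1 fell (log2 difference -1.12 ± 0.27, adjusted p = 0.0115), and COL3A1 was at 0, 0.113 and 0.282 CPM in vehicle and 0.96, 1.97 and 98 CPM in TGFBRi rats, 1 treated rat being far above the others, as it was for COL1A1 (0.611, 1.03 and 127 CPM). DESeq2 called 0 higher and 2 lower there, and leaving out ACI7 left 1 call, ACI15 2 and ACI9 or ACI12 4. In the SD sort COL12A1, COL9A3, COL4A5 and COL4A6 fell, with 0 calls without SD1 and 1 without SD2 or SD3. Luminal marker sums were 8787 to 10211 CPM in vehicle and 11601 to 13059.7 CPM in TGFBRi rats of the ACI luminal sort, higher without overlap, fibroblast marker sums overlapped (106.6 to 177 and 99 to 185 CPM), and their part was not tested.

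In the fibroblast-like cells of whole glands, treated and vehicle rats overlapped for the main fibrillar collagens. COL1A1 was at 29426, 31109.8 and 46383 CPM in vehicle and 36420.0 (lowest), 41965 (median) and 46749 CPM (highest) in TGFBRi rats (log2 difference -0.042 ± 0.20, adjusted p = 0.913). COL3A1 was at 20248, 21579 and 30662 CPM in vehicle and 28869.6 (lowest), 29110.1 (median) and 31905 CPM (highest) in TGFBRi rats (log2 difference 0.025 ± 0.18, adjusted p = 0.946), with overlap in both. These differences are after TMM scaling, and with library totals COL1A1 and COL3A1 differed by 0.23 and 0.30 (adjusted p = 0.266 and 0.119). Of 37 collagens 2 were called, where 30.7% of all genes were, and the median was -0.066 against 0.0078. COL13A1, a transmembrane collagen, rose, with 6.89, 8.54 and 9.23 CPM in vehicle and 13.2 (lowest), 20.0 (median) and 35.3 CPM (highest) in TGFBRi rats (log2 difference 1.15 ± 0.33, adjusted p = 0.0217), and COL10A1 was called on a mean of 1.33 UMIs a rat. In adventitial fibroblast-like cells COL12A1 (log2 difference -0.94 ± 0.33, adjusted p = 0.0899) and COL4A1 (log2 difference -0.65 ± 0.21, adjusted p = 0.0672) fell of 27, where 9.62% of all genes were called, and COL1A1 differed by 0.021 (adjusted p = 0.973).

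In pericyte-like cells COL8A1, a short-chain network collagen, rose, with 3.77, 7.1 and 10.4 CPM in vehicle and 17.8 (lowest), 24.8 (median) and 27.9 CPM (highest) in TGFBRi rats (log2 difference 1.55 ± 0.31, adjusted p = 0.00208), with no overlap, COL27A1 rose by 0.96 and COL15A1 fell by 2.48 (adjusted p = 0.012), 3 of 36 beside 25.9% of all genes. COL4A1 and COL4A2, highest in these cells, differed by -0.17 and 0.11 (adjusted p = 0.517 and 0.679). In endothelium-like cells COL8A1 fell (log2 difference -0.86 ± 0.36, adjusted p = 0.071), 1 of 28 beside 32.3%. In lymphatic endothelium-like cells COL5A1 (log2 difference 1.02 ± 0.32, adjusted p = 0.0225) and COL8A2 rose, 2 of 18 beside 15.7%. In Schwann-like cells COL12A1 (-0.71), COL1A1 (-0.70) and COL6A2 (-0.56) fell, 3 of 27 beside 10.6%, and DESeq2 called 0 of them.

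The stromal counts moved with single rats and with the scaling. Without vehicle rat veh4, edgeR called 12 collagens in adventitial fibroblast-like, 7 in fibroblast-like, 9 in pericyte-like and 4 in endothelium-like cells. Without veh1 it called 4 in endothelium-like and 5 in lymphatic endothelium-like cells. Leaving out ly4 or ly6 left 1 call in fibroblast-like cells. In adventitial cells ly1, ly4 or ly11 left 0 and ly6, ly14 or veh2 left 1. In endothelium-like cells ly1, ly6 or ly14 left 0 and ly11 gave 2. In Schwann-like cells ly1, ly2 or ly4 left 0 and ly6, ly11, ly14 or veh2 left 1. Without the 6% of cells with the highest Scrublet scores, a doublet score, adventitial fibroblast-like cells had 1 call and Schwann-like cells 0. With library totals, which moved the median of all genes in fibroblast-like cells from 0.0078 to 0.26, 7 rose and 0 fell in fibroblast-like, 5 rose and 0 fell in adventitial, 5 rose and 1 fell in pericyte-like, 2 rose in endothelium-like and 0 were called in Schwann-like cells. The share of all genes called in these alternative fits is not set beside the counts, so they do not single out the collagens.

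In the other whole-gland classes collagen values were low. In luminal progenitor-like cells edgeR called 0 of 31 (3 at an unadjusted p under 0.05; DESeq2 called 2), beside 26.8% of all genes, and leaving out ly1 or veh1 gave 2 and ly14 or veh2 1. In mature luminal-like cells 6 of 23 fell (28.3% of all genes called), led by COL4A1 at 30.7, 42.5 and 71.5 CPM in vehicle and 3.65 (lowest), 11.1 (median) and 21 CPM (highest) in TGFBRi rats (log2 difference -2.16 ± 0.46, adjusted p = 0.0044). In macrophage-like cells 4 of 25 fell (8.81%), led by COL4A1 at 21.1, 41.9 and 104.8 CPM in vehicle and 2.21 (lowest), 8.76 (median) and 15.8 CPM (highest) in TGFBRi rats (log2 difference -2.88 ± 0.55, adjusted p = 0.00774), and 8 without veh1. In B-like cells 2 of 26 fell (17.6%), COL5A3 and COL4A1, the latter at 8.0, 24.5 and 27.6 CPM in vehicle and 5.34 (lowest), 9.67 (median) and 12.6 CPM (highest) in TGFBRi rats, and in T-like cells 1 of 26, COL5A3 (6.22%). B-like and T-like cells are known to lack these genes, and whether free RNA or doublets gave their levels was not tested. Without the 6% of cells with the highest Scrublet scores, B-like cells had 0 calls, T-like cells 1, mature luminal-like cells 2 instead of 6 and luminal progenitor-like cells 4 instead of 0. For COL4A1 the macrophage-like vehicle rats overlapped the B-like ones, whereas the mature luminal-like ones lay above them. In mature luminal-like cells leaving out veh4 gave 3 lower and 1 higher. In B-like cells leaving out ly2, ly14 or veh4 left 0, ly1, ly4, ly6, ly11 or veh2 1 and veh1 gave 5, and in T-like cells ly14 or veh4 left 0 and veh1 gave 4.

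In single cells the synthesis genes were called in both directions in basal-like cells. In ACI basal-like cells, where 25.2% of all genes were called, 3 of 29 synthesis genes rose, among them the prolyl hydroxylase subunit P4HB (0.45 ± 0.14, adjusted p = 0.0142), and 6 fell, among them P4HA1 (-0.48 ± 0.20, adjusted p = 0.0461) and the peroxidase PXDN, which crosslinks type IV collagen (-0.46 ± 0.20, adjusted p = 0.0579). In SD basal-like cells, beside 29.5% of all genes, 5 of 29 rose and 5 fell, PXDN among the latter (-1.16 ± 0.45, adjusted p = 0.0693). In whole-gland basal-like cells, beside 45.1%, 11 of 30 rose, PXDN among them (0.97 ± 0.20, adjusted p = 0.00177), and 3 fell. Of the collagen receptors 3 of 9 fell and 0 rose in ACI, 1 of 10 fell and 0 rose in SD, and 3 of 10 fell and 1 rose in whole-gland basal-like cells. Summed over the whole ACI basal sort, beside 32.9% of all genes, 3 of 30 synthesis genes rose and 4 fell, PXDN but not P4HA1 among the latter, and of 10 receptors MRC2 alone fell. Over the whole SD basal sort, beside 24.7%, 3 of 30 synthesis genes rose and 4 fell, and of 10 receptors ITGA1 alone fell. In fibroblast-like cells, beside 30.7% of all genes, 5 of 32 synthesis genes fell, led by PLOD2 (-1.38 ± 0.25, adjusted p = 0.000531), and 6 of 10 receptors fell, among them ITGA1 (-1.07 ± 0.24, adjusted p = 0.00303), ITGB1 (-0.71 ± 0.14, adjusted p = 0.00302) and DDR2 (-0.58 ± 0.17, adjusted p = 0.0128).

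In bulk basal sorts of peripubertal ACI rats at day 0, limma called 0 of 26 collagens (5 at an unadjusted p under 0.05; edgeR 0, DESeq2 3), where 3.34% of all genes were called. When only the 2 groups compared were fitted 8 passed, a count given without the share of all genes called in that fit. COL2A1 was at 16703, 17528 and 19147 in vehicle and 1038, 2972 and 3520.1 in TGFBRi rats (log2 difference -3.0 ± 1.2, adjusted p = 0.136). COL9A1 was at 881, 1082 and 1492 in vehicle and 198, 520.4 and 544 in TGFBRi rats (log2 difference -1.55 ± 0.54, adjusted p = 0.0992). COL4A1 was at 78859.6, 92702 and 93098 in vehicle and 7471, 31261 and 51152 in TGFBRi rats (log2 difference -1.94 ± 0.94, adjusted p = 0.204). None of the 3 genes overlapped between the groups, but all missed the threshold, and a lack of overlap in 3 against 3 rats is no test. Basal marker sums were 192409 to 273178 in vehicle and 56727 to 118527 in TGFBRi rats and fibroblast marker sums 23564 to 38399.5 and 41071 to 246437, whose part was not tested. Treated basal libraries LD7L and LD7R held values above 0 for 15058 and 15297 genes on 6562769 and 4194912 reads. Vehicle basal libraries held 12612 to 14603 genes on 12382292 to 18781674 reads. The part of this in the lower values was not tested. In bulk, fewer cells of a type and less RNA per cell cannot be told apart. Of 31 synthesis genes, PCOLCE2 rose (2.82 ± 0.63, adjusted p = 0.03) and FKBP10 (-1.48 ± 0.31, adjusted p = 0.0233) and P3H4 fell. Leaving out TGFBRi rat LD10R gave 1 call.

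At day 7 and day 14 limma called 0 of 26 in basal cells (5 and 0 at an unadjusted p under 0.05; edgeR and DESeq2 0), beside 0.00639% and 0% of all genes. The vehicle groups were wide there, and COL4A1 was at 13765, 52340.2 and 109156 normalized counts at day 7 and 26279, 137822 and 144171 at day 14. The lowest day 7 value was that of rat LD2LR, whose basal and luminal libraries one label describes as treated while title and treatment give control, and they were kept as vehicle. Without LD2LR limma called 0 of 26 at day 7 in basal and 0 of 26 in luminal cells (1 and 1 at an unadjusted p under 0.05). The effect at day 0 minus that at day 7 or day 14 was called for 0 of 26 (5 and 2 at an unadjusted p under 0.05; edgeR and DESeq2 0), beside 0% and 0.00639% of all genes. In vehicle rats, day 14 against day 0 gave 0 of 26 in basal cells (3 at an unadjusted p under 0.05; edgeR and DESeq2 0), beside 0.0384%, and 0 of 26 in luminal cells (4; edgeR and DESeq2 0; 4 in the fit of the groups compared), beside 0.389%.

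In luminal sorts at day 0 COL7A1 alone was called of 26, where 1.01% of all genes were. It was at 0.829, 5.48 and 10.9 in vehicle and 17.8, 102.3 and 109 in TGFBRi rats (log2 difference 3.52 ± 0.79, adjusted p = 0.0456), with no overlap, and the call was lost in edgeR and when LD3L, LD3R, LD4R, LD7L or LD7R was left out, whereas 3 collagens passed without LD10R. LD7L and LD7R held values above 0 for 15060 and 15143 genes on 10192039 and 8922897 reads, against 12096 to 13296 genes on 18895823 to 21160386 reads in vehicle rats, and the part of this in the rise was not tested. The collagen receptor DDR2 also rose (3.06 ± 0.66, adjusted p = 0.0408). At day 7 and day 14, limma called 0 of 26 (1 and 3 at an unadjusted p under 0.05; edgeR 0, DESeq2 0 and 1), beside 0% and 0% of all genes. The effect at day 0 minus that at day 7 or day 14 was called for 0 (3 and 3 at an unadjusted p under 0.05; edgeR and DESeq2 0), beside 0% and 0.00659%. In peripubertal SD rats limma called 0 of 25 in basal cells (3 at an unadjusted p under 0.05), 0 of 25 in luminal cells (3) and 0 of 26 in CD45+ cells (0), and edgeR and DESeq2 called 0 in each, beside 0%, 0% and 0% of all genes. Here 22 of 25 collagens had a negative difference in basal cells, with a median of -0.37 against -0.019, and COL17A1 was at 10200.4, 10222, 11624 and 13626 in vehicle and 5151, 13271, 13856 and 14182 in TGFBRi rats (log2 difference -0.074 ± 0.30, adjusted p = 0.994). The 25 differences come from the same rats and are not independent. The treated SD basal libraries held values above 0 for 11809 to 12473 genes against 12609 to 12666 in vehicle, without overlap. The part of this was not tested.

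In the fit of all groups, the CD45+ sort of ACI rats at day 0 had the most collagen calls of the bulk treatment comparisons, whereas fits of the groups compared gave 4 there and 8 and 5 in the basal and luminal sorts. The share of all genes called in those fits of the groups compared is not set beside these counts. In CD45+ cells, with all groups fitted, 13 of 27 fell and 0 rose, where 2.85% of all genes were called (2.01% lower), with a median of -2.73 against -0.038. COL3A1 was at 225138, 338041 and 351972 in vehicle and 5641, 25542 and 83704 in TGFBRi rats (log2 difference -3.71 ± 0.79, adjusted p = 0.0238). COL1A1 was at 125431, 216379 and 380137 in vehicle and 5119, 27464 and 51193 in TGFBRi rats (log2 difference -3.49 ± 0.82, adjusted p = 0.0344). COL4A1 was at 4955, 8043 and 11015 in vehicle and 832, 1086 and 1654 in TGFBRi rats (log2 difference -2.73 ± 0.41, adjusted p = 0.00284). The groups did not overlap for these 3 genes. COL2A1 and COL8A1 had no reads in any treated library and were at least 161-fold and 35.2-fold lower than in vehicle rats, against a floor of 3 reads per library. COL9A2, COL5A3, COL5A1, COL16A1, COL15A1, COL18A1, COL6A2 and COL14A1 fell by 3.78 to 2.22 on the log2 scale.

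Fibrillar collagens are known mainly from fibroblasts, and markers of other cells moved with the result. Fibroblast marker sums were 116691 to 155960.0 in vehicle and 37475 to 56367 in TGFBRi rats, basal marker sums 4184 to 15406 and 135 to 246 with TP63 at 0 in the treated libraries, and pericyte marker sums 1556 to 2088 and 305 to 318. Sums of the endothelium markers were 4833 to 12649 and 3522 to 5416, those of the leukocyte markers 133849 to 205772 and 133581 to 157996, and those of the macrophage markers 84489.9 to 639193 and 170313 to 376739. The part of these cells in the result was not tested. Of 31 synthesis genes 8 fell, among them SERPINH1, the collagen chaperone (-2.88 ± 0.57, adjusted p = 0.0163), and of 10 receptors 3 fell, among them the leukocyte collagen receptor LAIR1 (-4.0 ± 1.02, adjusted p = 0.0458) and MRC2, which takes up collagen (-1.77 ± 0.38, adjusted p = 0.0239). EdgeR called 6 and DESeq2 16, the fit of the 2 groups alone 4, and leaving out vehicle rat LD3R, treated rat LD10R or treated rat LD7R gave 5, 5 and 8. At day 7 and day 14 limma called 0 of 27 (2 and 1 at an unadjusted p under 0.05; edgeR and DESeq2 0), beside 0% and 0% of all genes. One of the treated day 7 CD45+ libraries, that of rat LD9R, has another day in its title than in its other labels, which give day 7, and without it limma called 0 of 27 (2 at an unadjusted p under 0.05). COL3A1 was then at 211887, 224575 and 494839 in vehicle and 169786, 239908 and 1247120.0 in TGFBRi rats at day 14.

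**Figure D4:**
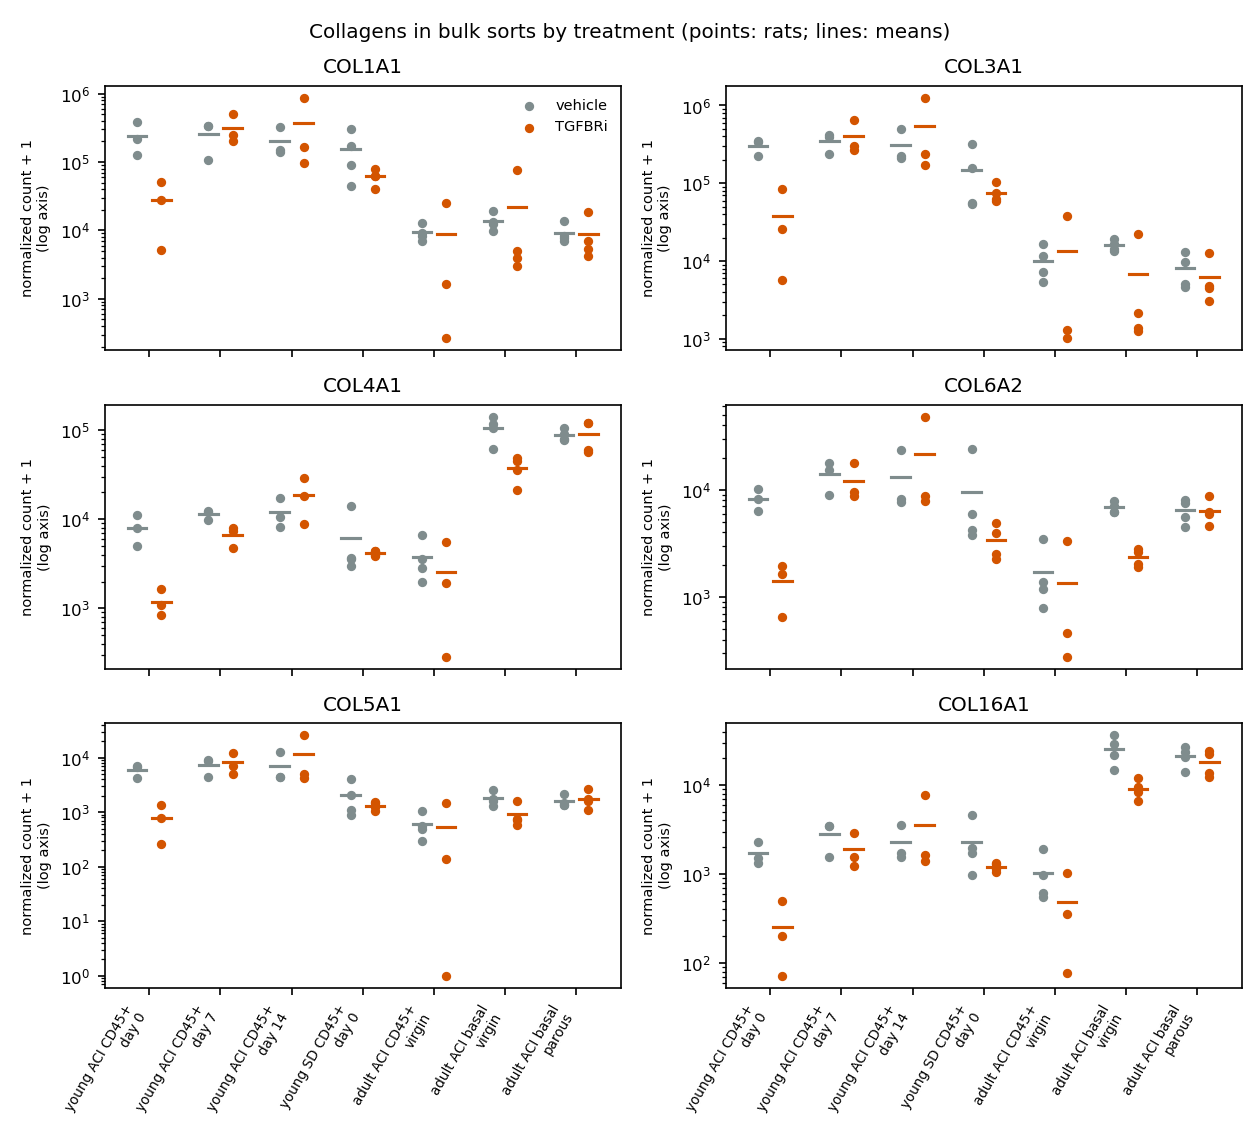
Normalized counts (log axis, 1 added) of 6 collagens in vehicle (gray) and TGFBRi (orange) rats, 1 point a rat and a line at the mean, in CD45+ sorts and adult basal sorts. Treated CD45+ libraries of young ACI rats lie below the vehicle ones at day 0 and overlap them at days 7 and 14, except for COL4A1 at day 7.

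In adult virgin ACI rats 6 of 28 collagens fell in basal cells after TGFBRi and 0 rose, where 8.73% of all genes were called (6.23% lower), with a median of -0.78 against -0.25. COL6A2 was at 6180.2, 6219, 7092 and 7893 in vehicle and 1901, 2036, 2615 and 2826 in TGFBRi rats (log2 difference -1.56 ± 0.23, adjusted p = 0.00126). COL4A1 was at 60803, 104788, 116544 and 141424 in vehicle and 21489, 35454, 44583 and 48513 in TGFBRi rats (log2 difference -1.5 ± 0.32, adjusted p = 0.01). Treated rats lay below every vehicle rat for both genes. COL3A1 was at 13549, 14458, 16585 and 19201 in vehicle and 1257, 1378, 2125 and 22512 in TGFBRi rats (log2 difference -2.39 ± 0.69, adjusted p = 0.0429), with 1 treated rat far above the other 3, and COL14A1 (-1.99), COL16A1 (-1.43) and COL5A1 (-1.06) fell as well. Basal marker sums were 325335 to 708561 and 316730.0 to 634395 and fibroblast marker sums 50038 to 298001 and 64139 to 130337, so both overlapped. The treated basal libraries held values above 0 for 10154 to 11437 genes against 12126 to 12564 in vehicle, without overlap, on 19114809 to 36217197 and 24258831 to 29728987 reads, and the part of this in the falls was not tested. Of 32 synthesis genes 5 fell, among them LOX (-4.45 ± 1.13, adjusted p = 0.0236) and PXDN (-2.41 ± 0.66, adjusted p = 0.0333). EdgeR called 4, DESeq2 6 and the fit of the groups compared 1, and leaving out vehicle N1R, vehicle N2N, treated N2N or treated N2R gave 3, 3, 3 and 10.

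In parous rats limma called 0 of 28 in basal cells (2 at an unadjusted p under 0.05; edgeR and DESeq2 0), beside 0.00744% of all genes. COL6A2 was there at 4537, 5582, 7539 and 8069.8 in vehicle and 4617, 5947, 6221 and 8828 in TGFBRi rats, and the virgin effect minus the parous effect was -1.55 ± 0.32 (adjusted p = 0.0334), the only call of 28 beside 1.04% of all genes. That call was lost when N1N, N1R, N2N or N2R of the virgin vehicle rats, P2N or P2R of the parous vehicle rats, or P1N, P1R or P2N of the parous treated rats was left out, and 2 passed without virgin treated rat N2R. The parous basal libraries held values above 0 for 12141 to 12578 genes in TGFBRi and 11778 to 12309 in vehicle rats, so the lower detection stood in the virgin treated group. In luminal cells limma called 0 of 28 in virgin rats (3 at an unadjusted p under 0.05; edgeR 0, DESeq2 1) and 0 in parous rats (3; edgeR and DESeq2 0), beside 0% and 0.0281%, and the parity difference gave 0 (6; edgeR and DESeq2 0), beside 0%. In CD45+ cells of virgin rats it called 0 of 28 (5; edgeR 0, DESeq2 3), beside 0.022%, with 27 of 28 differences negative and a median of -1.45 against -0.13 for all genes. Fibroblast marker sums there were 33432 to 346724 in vehicle and 26959.9 to 54734 in TGFBRi rats and basal marker sums 9794 to 31532 and 3905 to 11848, whose part was not tested. These CD45+ libraries held values above 0 for 12264 to 12896 genes in vehicle and 10965 to 12127 in TGFBRi rats, without overlap. The part of this was not tested either. Parous against virgin vehicle rats gave 0 of 28 in basal cells (0 at an unadjusted p under 0.05; edgeR and DESeq2 0) and 0 in luminal cells (8; edgeR 0, DESeq2 1; 1 without parous rat P1R), beside 0% and 0% of all genes. The luminal median was -1.39 against -0.042, and fibroblast marker sums were 10016 to 149288 in virgin and 12158 to 26277 in parous luminal sorts.

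In rats given NMU, tumor-free TGFBRi rats were first compared with tumor-bearing vehicle rats, which differ in treatment and in tumor state. Limma called 0 of 26 in basal cells (0 at an unadjusted p under 0.05; edgeR and DESeq2 0), beside 0% of all genes. In luminal cells COL16A1 rose, 1 of 26 beside 0.948%, from 658, 668 and 854 to 2242, 2318 and 3085 (log2 difference 1.8 ± 0.40, adjusted p = 0.0403), with no overlap. The call was lost with a pseudocount of 8, without vehicle rat C2N or C2R and without treated rat D1N, D1R or D2R. Among tumor-bearing rats alone, a comparison added after the other results were seen, TGFBRi against the same vehicle rats gave COL16A1 as the 1 call of 26 in luminal cells, beside 0.212% of all genes. COL16A1 was there at 2423, 3538 and 5005 in TGFBRi rats (log2 difference 2.28 ± 0.40, adjusted p = 0.0365), above every vehicle rat. The call was lost without vehicle rat C2N or C2R, without treated rat D2N or D3R (where COL15A1 was the 1 call), in the fit of the groups compared and with a pseudocount of 8, 2 passed without C5R, and edgeR called 1 and DESeq2 3. In basal cells of tumor-bearing rats limma called 0 of 26 (3 at an unadjusted p under 0.05; edgeR 0, DESeq2 1; 1 without treated rat D2N), beside 1.31%. Within the treated NMU rats, tumor-free against tumor-bearing, COL14A1 was lower and COL8A1 higher in basal cells, 2 of 26 beside 5.58%. COL14A1 was at 240.1, 389 and 1016 in tumor-free and 1234, 1604 and 1605 in tumor-bearing rats (log2 difference -1.69 ± 0.43, adjusted p = 0.0416). COL8A1 was at 79.5, 124 and 141 in tumor-free and 12, 20.0 and 43 in tumor-bearing rats (log2 difference 2.3 ± 0.61, adjusted p = 0.0449). EdgeR called 0 and DESeq2 2, leaving out D1N, D2R or D3R gave 0, and D1R or D4R gave 1. The treated tumor-free basal libraries held values above 0 for 12185 to 13217 genes and the treated tumor-bearing ones for 10684 to 12089, without overlap. Their reads on genes overlapped, at 15633443 to 18207005 and 12967350 to 16719836. The part of this detection difference in the COL14A1 and COL8A1 calls was not tested. In luminal cells 0 of 26 passed (2 at an unadjusted p under 0.05 in limma; edgeR and DESeq2 0), beside 0%.

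In NMU tumors limma called 0 of 27 in EPCAM+ cells and 0 of 24 in CD45+ cells (0 and 0 at an unadjusted p under 0.05; edgeR and DESeq2 0), beside 0% and 0% of all genes. EPCAM+ tumor cells read 4248 to 21589 CPM for COL1A1 in vehicle and 3702 to 26378 in TGFBRi rats, and for COL17A1 36 to 55.2 and 48.3 to 88.8. Fibroblast marker sums in them were 67999 to 625256 and 191646 to 414459 normalized counts, against luminal marker sums of 99863 to 195025 and 45272 to 99998. In the E2 experiment, luminal cells of vehicle rats had 1 call of 27 in tumor-bearing rats with E2 against tumor-free rats without it, beside 1.48% of all genes. COL18A1 was at 143, 150.2, 207 and 480.0 without and 983, 1041, 1553 and 3130.4 with E2 (log2 difference 2.79 ± 0.60, adjusted p = 0.0227), with no overlap, and the call was lost without A4-18, A4-28 or A4-38 of the rats without E2 and without A4-1 or A4-37 of those with it. TGFBRi against vehicle without E2 gave 0 of 27 (2 at an unadjusted p under 0.05 in limma; edgeR and DESeq2 0), and tumor-free TGFBRi against tumor-bearing vehicle rats with E2 0 of 27 (2; edgeR and DESeq2 0), beside 0.0147% and 0.0147%.

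Across data sets, scaled separately and set side by side with no test, COL4A1 read 5151 to 6509 CPM in peripubertal ACI vehicle basal cells, 4123 to 5309 in peripubertal SD, 2249 to 5887 in adult virgin ACI, 3150.3 to 4780.4 in adult parous ACI and 1838 to 2484 in NMU SD rats. COL1A1 read 1059 to 3690.2, 13978 to 26702, 432 to 707, 289 to 623 and 638 to 3838 in the same groups. COL17A1 read 1127 to 1309, 917 to 1192, 1043 to 2914, 2470.6 to 2917 and 828.5 to 1227. In CD45+ sorts of vehicle rats COL1A1 read 4307 to 16580.4 in peripubertal ACI, 2820.5 to 19736 in peripubertal SD, 272 to 516 in adult virgin ACI and 1.02 to 5.14 in E2-implanted ACI rats. In basal sorts COL1A1 spanned a wider range over these groups than COL4A1 or COL17A1 did.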

How the data were processed

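The members, the gene lists and several tests were chosen with earlier results of these data known. Bulk libraries (SMARTer v4) were aligned by the authors with STAR 2.5.1b to rn6 and counted without strand by htseq-count on UCSC refGene, and the deposited values are counts divided by DESeq2 size factors (signal), from which whole reads were recovered for 100% of 2526805 values (within 0.001). Rows that name no gene, 23.1% to 42.5% of the reads in 85 samples, were left out. The deposited single-cell counts are UMIs from Cell Ranger 4.0.0 (sorted, 3′ chemistry) or 7.0.0 (whole gland, 5′ chemistry), and cells with at least 100 genes, at most 15% mitochondrial UMIs and, in sorts, no PTPRC UMI and at least 2 keratin UMIs were kept.

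Bulk values were tested as log2(normalized count + 1) with limma 3.58.1 (trend, robust), keeping genes whose values summed to 10 or more, with all groups of a fraction and data set in 1 model and Benjamini-Hochberg adjustment over all genes. The exception was basal against luminal, fitted on both sorts of all peripubertal ACI groups, or of all peripubertal and NMU SD groups. The log2 differences understate changes of low genes. E2 samples that were parts of 1 rat were averaged. Cells were clustered without collagens (scanpy 1.11.5, 2000 genes, 30 components, 20 neighbors, Leiden resolution 0.8), and clusters were named from fixed markers by a rule chosen after seeing the data. UMIs were summed per rat and class (at least 10 cells a rat and 10 counts a gene) and tested with edgeR 4.0.16 (quasi-likelihood, TMM), and the SE given is that of DESeq2 1.42.0. No doublet threshold was used, and an alternative left out the 6% of cells with the highest Scrublet score. Both tests were tested on simulated data with known changes. Replicates are rats by the codes in the labels.

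Genes were named where they passed, up to 6 in each direction with a mean of at least 50 normalized counts or 20 UMIs a rat, and all others named were chosen after their values were seen. Both sorts of a rat carry its code in the labels, and their deviations from the group means correlated at 0.0344 to 0.216 in ACI and 0.0858 to 0.183 in SD rats. Alternatives were edgeR and DESeq2 on recovered reads, TMM scaling, other pseudocounts and filters, fits of the groups compared only, replicate blocks, other clusters and leaving out each rat.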

Additional observations from a re-analysis of the deposited data

Results flagged for a closer look

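Each named collagen was searched, in each group of 4 to 10 rats it was compared in, for a library far from the others, and 6 of 72 such pairs of a gene and a group held one, where chance gives about 5%. In SD luminal vehicle cells COL17A1 was 542 normalized counts in 1 rat, and the next rat was at 18.0. The basal marker sums of these luminal libraries ran from 8309 to 77609, and the same rat held the highest. In SD basal vehicle cells COL2A1 was lowest at 11546 against 12531 in the next rat. In basal cells of adult virgin TGFBRi rats, COL3A1 was 22512 in 1 rat and 2125 in the next, and COL5A1 was 1602 and 735. In whole glands, COL5A1 was 118 CPM in lymphatic endothelium-like cells of 1 TGFBRi rat against 81.2 in the next, and COL6A2 was 9.64 CPM in mature luminal-like cells of 1 TGFBRi rat against 4.1.

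The TGFBRi effect on COL6A2 in adult basal cells differed between virgin and parous rats by -1.55 on the log2 scale in the test of that difference. That call was lost when single rats were left out, as listed above. The virgin treated libraries also held fewer genes with values above 0. The effect in whole-gland minus that in sorted SD basal-like cells passed its own test for COL14A1 (2.19), COL5A1 (1.93), COL2A1 (1.88), COL12A1 (1.86), COL9A1 (1.83), COL4A2 (1.67), COL18A1 (-1.13) and COL15A1 (-1.91), and those of COL4A2 and COL15A1 were lost when veh2, and when veh4 or SD3, was left out. Sorting, chemistry and rats changed together between these experiments and cannot be told apart.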

How the results depend on the processing

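Counts of collagens called are given where they moved by over 1.5 times. The share of all genes called under each alternative is not given, so they do not show whether collagens moved more than other genes. The cause was not tested. DESeq2 on the single-cell sums gave ACI luminal progenitor (2), ACI luminal sort (2), SD mature luminal (1) and whole-gland Schwann (0), fibroblast (1), luminal progenitor (2). DESeq2 on recovered bulk reads gave young ACI basal day 0 (3), young ACI luminal day 0 (2), young ACI luminal day 14 (1), adult virgin luminal (1), adult virgin CD45+ (3), NMU luminal (4), parous against virgin luminal (1), E2 against none (2), parity difference in basal (2), tumor-bearing NMU SD, basal (1), tumor-bearing NMU SD, luminal (3). Clustering at resolution 0.4 gave ACI basal (6) and whole-gland B (1), Schwann (1), luminal progenitor (2), macrophage (2). At that resolution no ACI cluster was named mature luminal-like. No whole-gland cluster was named endothelium-like, lymphatic endothelium-like, pericyte-like or adventitial fibroblast-like there. Those classes were therefore not tested at resolution 0.4. edgeR on recovered bulk reads gave young ACI luminal day 0 (0), young ACI CD45+ day 0 (6), NMU luminal (2), NMU tumor-free against tumor-bearing basal (0). Library totals gave ACI luminal progenitor (7), ACI luminal sort (11), ACI mature luminal (4), SD basal (21), SD basal sort (21) and whole-gland Schwann (0), adventitial fibroblast (5), endothelium (2), fibroblast (7), luminal progenitor (1), pericyte (6). No filter on single-cell counts gave whole-gland luminal progenitor (1), lymphatic endothelium (6). No filter on bulk values gave NMU tumor-free against tumor-bearing basal (0). Fitting only the groups compared gave young ACI basal day 0 (8), young ACI luminal day 0 (5), young ACI CD45+ day 0 (4), adult virgin basal (1), NMU luminal (3), day 14 against day 0 luminal (4), NMU tumor-free against tumor-bearing basal (0), E2 against none (2), tumor-bearing NMU SD, luminal (0). A pseudocount of 8 gave young ACI basal day 0 (1), NMU luminal (0), tumor-bearing NMU SD, luminal (0). The rat number as a replicate block over whole-gland rats 1, 2 and 4 gave whole-gland B (0), Schwann (1), T (0), adventitial fibroblast (0), macrophage (2), pericyte (1). Those rats with no block gave whole-gland B (0), Schwann (1), T (0), adventitial fibroblast (0), basal (8), endothelium (0), fibroblast (1), macrophage (0), mature luminal (3), pericyte (1). Leaving out the 6% highest Scrublet scores gave whole-gland B (0), Schwann (0), adventitial fibroblast (1), luminal progenitor (4), mature luminal (2). Leaving out 1 rat gave young ACI basal day 0 (0 to 1), young ACI luminal day 0 (0 to 3), young ACI CD45+ day 0 (5 to 14), adult virgin basal (3 to 10), NMU luminal (0 to 1), parous against virgin luminal (0 to 1), NMU tumor-free against tumor-bearing basal (0 to 2), E2 against none (0 to 1), parity difference in basal (0 to 2), tumor-bearing NMU SD, basal (0 to 1), tumor-bearing NMU SD, luminal (0 to 2), ACI basal (7 to 14), ACI basal sort (8 to 14), ACI luminal progenitor (2 to 5), ACI luminal sort (1 to 8), ACI mature luminal (0 to 3), SD basal (0 to 17), SD basal sort (1 to 16), SD luminal progenitor (0 to 8), SD luminal sort (0 to 6), SD mature luminal (0 to 3). In whole-gland classes it gave B (0 to 5), Schwann (0 to 4), T (0 to 4), adventitial fibroblast (0 to 12), basal (5 to 17), endothelium (0 to 4), fibroblast (1 to 7), luminal progenitor (0 to 2), lymphatic endothelium (2 to 5), macrophage (3 to 8), pericyte (2 to 9). COL14A1 in ACI basal-like cells turned to -0.63 at resolution 0.4, and without veh4 COL1A1 in Schwann-like cells and COL3A1 and COL1A1 in whole-gland basal-like cells turned sign, with ranges over the rats left out of -0.99 to 0.037, -0.75 to 1.17 and -0.66 to 1.13. Of the values of single collagens under all alternatives, 8845 kept their side of the threshold. These kept their direction too, or were uncalled and turned sign by no more than their SE. With the direction kept, 400 lost the call and 156 gained it. The other 117 turned sign, either by more than their SE or where called. Of the counts, 682 stayed within 1.5 times, those at 0 in both settings included, against 194. With the rat as a replicate block 24 and 23 collagens were higher in ACI and SD basal sorts, and the block by shared rat codes gave 4 in adult virgin basal cells, with no other call count moved by it in bulk. Those codes and the whole-gland numbers mark no shared rat, and deviations of same-numbered rats correlated at -0.187 to 0.164 and -0.484 to 0.489. Libraries with few cells of a class limit the low-count collagens.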
